A study of Homo sapiens with 12 samples.

Results

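The insulin-like growth factor axis was followed through 10 genes, read by their symbols from RNA-seq tables that list 22650 symbols in all. They are the binding proteins IGFBP2, IGFBP3, IGFBP4, IGFBP6 and IGFBP7, the receptors IGF1R, INSR and IGF2R, and the adaptors IRS1 and IRS2. RNA was taken from Panc1 and MiaPaCa2, established human lines of pancreatic ductal adenocarcinoma, in which ASAP2 was either knocked out or intact. ASAP2 switches off small GTPases of the Arf family and takes part in membrane traffic. The groups were ASAP2 knockout Panc1, wild-type Panc1, ASAP2 knockout MiaPaCa2 and wild-type MiaPaCa2 cells, with 3 libraries each. The sources used here do not say how the knockout was made, how many clones it covers or whether replicates are separate cultures. The p-values therefore reflect only the spread between libraries, which may be technical. The values are FPKM, fragment numbers scaled to the length of the transcript and to the mapped fragments of the library, so levels of different genes can be set side by side.

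Insulin-like growth factors are secreted ligands that signal mainly through IGF1R, a receptor tyrosine kinase closely related to the insulin receptor INSR. The activated receptors phosphorylate the IRS adaptors, which pass the signal to PI3K, AKT and mTOR and thereby to growth and survival. Binding proteins hold the ligands outside the cell and can limit or prolong their action, and IGF2R, also the cation-independent mannose 6-phosphate receptor, takes up IGF2 for breakdown in lysosomes and carries lysosomal enzymes. In pancreatic cancer the axis is known as a source of growth and survival signals.

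The 10 genes were selected on their FPKM values across all 4 groups. Their levels and changes are therefore given as descriptions, with no p-value for any of them, and how many passed the fit is given only beside the share of all genes. All 10 passed the filter on low values (1 FPKM on average in either line) and entered the fit over 13340 genes. Changes below are knockout minus wild-type differences of log2(FPKM + 1) with their standard error (SE), a scale that understates the change of genes near 0.

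The starts of 4 of these genes are shown because they belong to the 2 binding protein genes that were lower in Panc1 knockout cells (IGFBP3 and IGFBP6) and to a receptor and an adaptor gene that were higher (IGF1R and IRS2). Each is the 250 bases before the RefSeq start on the gene's strand in GRCh38.p14, at chr7:45921273-45921522 (reverse strand), chr12:53097417-53097666 (forward strand), chr15:98648289-98648538 (forward strand) and chr13:109786584-109786833 (reverse strand). Capitals mark matches on either strand to the GC box GGGCGG, the TATA box TATAAA, the AP-1 site TGANTCA and the TEAD site GGAATG, and neighbouring GC boxes may overlap.
IGFBP3: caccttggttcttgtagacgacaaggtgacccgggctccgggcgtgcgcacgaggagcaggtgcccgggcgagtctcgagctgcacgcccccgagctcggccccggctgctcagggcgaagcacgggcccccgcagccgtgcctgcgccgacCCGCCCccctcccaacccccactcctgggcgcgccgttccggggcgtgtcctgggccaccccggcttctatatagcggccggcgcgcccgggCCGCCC
IGFBP6: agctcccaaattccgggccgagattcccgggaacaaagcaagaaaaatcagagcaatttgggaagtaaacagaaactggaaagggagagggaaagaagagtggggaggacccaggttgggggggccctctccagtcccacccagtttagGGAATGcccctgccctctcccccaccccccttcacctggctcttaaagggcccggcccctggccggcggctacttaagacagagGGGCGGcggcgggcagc
IGF1R: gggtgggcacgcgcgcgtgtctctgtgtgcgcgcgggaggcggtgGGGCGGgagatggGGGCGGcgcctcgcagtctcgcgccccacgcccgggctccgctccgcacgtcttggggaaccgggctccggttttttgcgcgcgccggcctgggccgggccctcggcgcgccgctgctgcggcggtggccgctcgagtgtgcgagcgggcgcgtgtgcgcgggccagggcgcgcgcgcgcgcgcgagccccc
IRS2: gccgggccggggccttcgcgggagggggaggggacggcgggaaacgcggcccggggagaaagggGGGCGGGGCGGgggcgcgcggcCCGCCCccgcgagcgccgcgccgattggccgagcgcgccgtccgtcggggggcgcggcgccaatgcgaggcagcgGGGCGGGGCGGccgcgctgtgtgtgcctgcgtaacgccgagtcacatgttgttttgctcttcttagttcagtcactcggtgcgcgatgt
The 4 windows differ in composition. Those of IGF1R and IRS2 hold 48 and 42 CpG dinucleotides and that of IGFBP3 holds 32, while that of IGFBP6 holds 9, and the median over 35116 promoter windows is 11. Matches to the GC box numbered 2 in IGFBP3, 1 in IGFBP6, 2 in IGF1R and 5 in IRS2, and 42.6% of all windows have at least 1. The TEAD site was matched once in IGFBP6 and in 11.9% of all windows. The TATA box (10.7% of all windows) and the AP-1 site (6.57%) had no match in these 4. Only the exact letters given were searched, so variant forms, such as tatata near the end of the IGFBP3 window, are not marked or counted. Of the 10 genes, 9 had an entry, all but IGFBP7.

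ASAP2 was measured first, as a check of the labels. In Panc1 it averaged 13.8 ± 0.978 FPKM in knockout and 36.9 ± 2.04 FPKM in wild-type libraries (SD, n = 3 each; log2 change -1.36), and in MiaPaCa2 12.3 ± 1.29 FPKM in knockout and 13.5 ± 0.32 FPKM in wild-type libraries (log2 change -0.13). In MiaPaCa2 the groups overlapped, so there the mRNA level does not check the labels. The 22 tested genes within 5 Mb of ASAP2 also read lower in knockout libraries, with a median relative to all genes of -0.67 in Panc1 (from -2.03 to 0.05), where ASAP2 stood at -1.25, and of -0.31 in MiaPaCa2 (from -0.95 to 0.01), where ASAP2 stood at -0.14. Depth, read from the FPKM steps of single fragments in 57 low genes, came to an estimated 21300000 to 22100000 fragments per library. Libraries of a group correlated across genes at r = 0.9931 to 0.9971. Of 10 listed markers of pancreatic ductal carcinoma, 7 reached a mean of 1 FPKM in Panc1 knockout, 8 in Panc1 wild-type and 5 in MiaPaCa2 libraries of either genotype. KRT8, KRT18 and SOX9 were high in both lines, while CDH1 was at or below 0.372 FPKM in every group and EPCAM was at 0 in MiaPaCa2. KRT19 read 254 FPKM in Panc1 knockout, 541 FPKM in Panc1 wild-type, 35 FPKM in MiaPaCa2 knockout and 105 FPKM in MiaPaCa2 wild-type libraries. In Panc1, KRT8 and KRT18 went the other way, at 514 and 404 FPKM in knockout and 372 and 310 FPKM in wild-type libraries. Of 4 leukocyte markers 1 reached 1 FPKM, the lysosomal protein gene CD68, at 164 FPKM in Panc1 knockout and 175 FPKM in Panc1 wild-type, and 18.7 FPKM in MiaPaCa2 knockout and 26.7 FPKM in MiaPaCa2 wild-type libraries, while CD14 lay between 0.149 and 0.497 FPKM, PTPRC at or below 0.004 FPKM and CD3E had no row. No endothelial, acinar or endocrine marker reached 1 FPKM. The summed fibroblast markers ran from 283 to 368 FPKM in Panc1 knockout and from 87.1 to 92.1 FPKM in Panc1 wild-type libraries, nearly all of it collagen COL1A1, while DCN had no row, LUM stayed at 0.00733 FPKM or less and PDGFRB averaged 0.646 FPKM or less. Its part in the results was not tested, and in bulk RNA fewer cells of a type and less RNA per cell cannot be told apart.

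In Panc1, IGFBP3, IGFBP6, IGFBP2 and IGFBP7 differed most between the genotypes, the first pair lower and the second pair higher in knockout cells. IGF1R was higher there too. In MiaPaCa2 these genes were near 0 or differed little, apart from a lower IGFBP2. In both lines IRS2 and IGF2R were higher in knockout cells. In Panc1 the 3 knockout values of all 10 genes were clear of the 3 wild-type values, 7 higher and 3 lower, beside 70.1% of all genes tested (24.7% higher and 45.3% lower). In MiaPaCa2 this held for 4 of 10, 2 higher and 2 lower, beside 43.5% (23% higher and 20.5% lower). In Panc1, 8 of 10 passed an adjusted p of 0.05 (limma, Benjamini-Hochberg), 6 higher and 2 lower, beside 63.5% of all genes (21.8% higher and 41.6% lower). In MiaPaCa2 5 passed, 2 higher and 3 lower, beside 34.1% (17.8% higher and 16.3% lower). The Panc1 change minus the MiaPaCa2 change passed for 6, positive in 4 and negative in 2, beside 57.4% (20% positive and 37.4% negative). Nothing is read from these counts, since the list was made with the values known. The median of all genes was -0.10 in Panc1 and 0.01 in MiaPaCa2, and -0.10 becomes 0.01 when libraries are rescaled by the median ratio, so Panc1 changes of about this size depend on scaling.

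**Figure D1:**
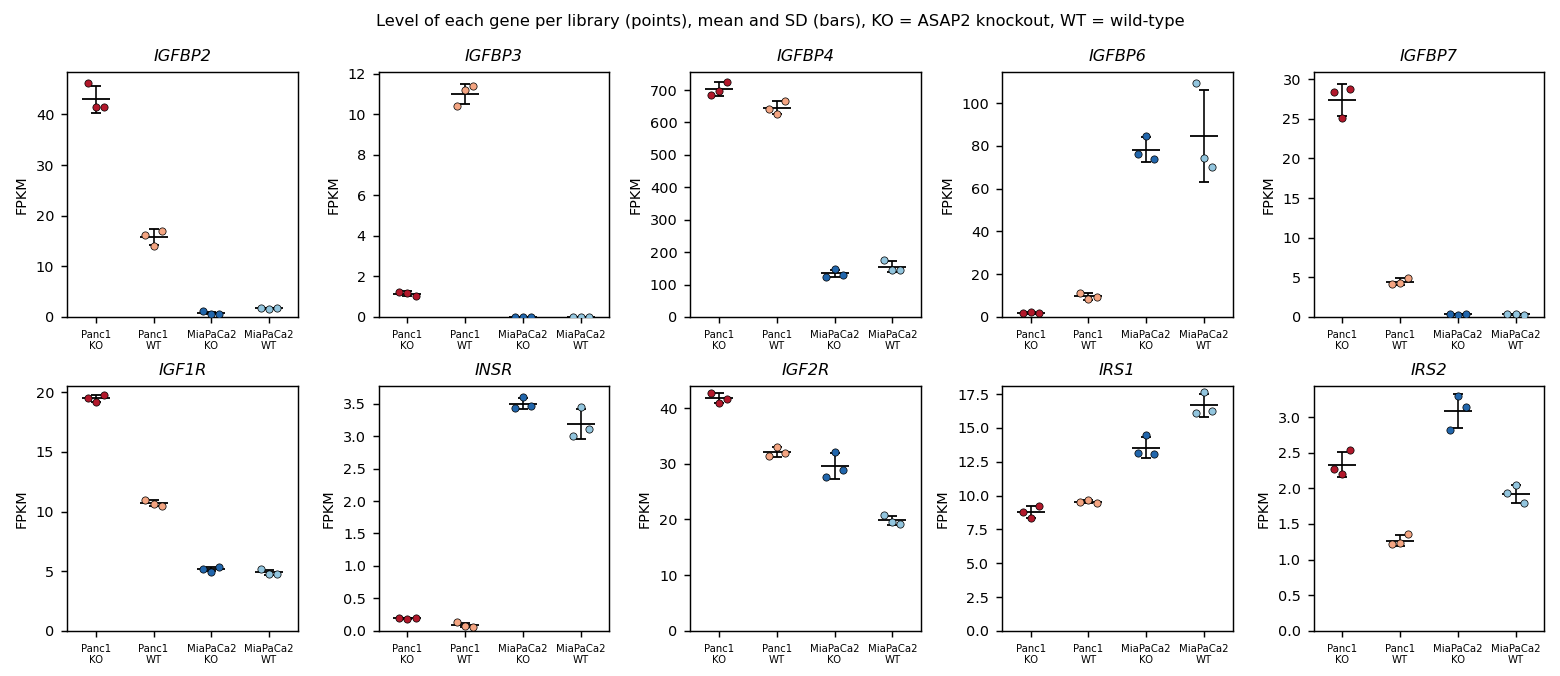
FPKM of the 10 genes in each of the 12 libraries (points), with the mean and SD of 3 libraries (bars); every vertical axis starts at 0 and has its own range. IGFBP3 had values of 1.02 to 1.21 FPKM in Panc1 knockout and 10.4 to 11.4 FPKM in Panc1 wild-type libraries, and INSR was far lower in Panc1 than in MiaPaCa2.

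IGFBP3 is the main carrier of insulin-like growth factors in blood and also acts on cells apart from its ligands. It lies on chromosome 7, 45951844 to 45961473 in hg19, on the reverse strand. Values in Panc1 were 1.21, 1.2 and 1.02 FPKM in knockout and 10.4, 11.2 and 11.4 FPKM in wild-type libraries. The 3 knockout values were close to each other and lay at 10.4% of the wild-type mean (log2 change -2.48, SE 0.06). In all 6 MiaPaCa2 libraries of both genotypes the gene had no row and was taken as 0, where 3 fragments would have read about 0.052 to 0.054 FPKM. Chromosome 7 as a whole read lower in Panc1 knockout libraries: its other 581 tested genes had a median of -0.23 relative to all genes, and the 38 within 5 Mb of IGFBP3 had a median of -0.41, from -2.02 to 0.08. IGFBP3 stood at -2.38 on that relative scale, below every one of these neighbours, the lowest of which was IGFBP1. DNA was not measured.

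IGFBP6 prefers IGF2 over IGF1 and is known as an inhibitor of IGF2 action. It lies on chromosome 12, 53491220 to 53496129, on the forward strand. The Panc1 knockout libraries held 1.68, 2.46 and 1.86 FPKM and the wild-type libraries 11.1, 8.23 and 9.41 FPKM. The groups did not overlap, and the knockout mean was 20.9% of the wild-type mean (log2 change -1.82, SE 0.15). In MiaPaCa2 the level was far higher, at 76.4, 84.8 and 73.7 FPKM in knockout and 109, 74.5 and 70.3 FPKM in wild-type libraries. There the groups overlapped and wild-type replicate 1 stood apart, so the log2 change was -0.09 (SE 0.15) with it and 0.11 without it. The other genes of chromosome 12 had a median of -0.03 relative to all genes in Panc1.

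IGFBP7 is a secreted relative that binds insulin-like growth factors weakly and is found in vessel walls and matrix. It lies on chromosome 4, 57896939 to 57976551, on the reverse strand. The Panc1 knockout libraries held 28.4, 25.1 and 28.8 FPKM and the wild-type libraries 4.11, 4.22 and 4.96 FPKM. The knockout mean was 619% of the wild-type mean (log2 change 2.39, SE 0.08), with no overlap. MiaPaCa2 had 0.344, 0.227 and 0.384 FPKM in knockout and 0.342, 0.334 and 0.269 FPKM in wild-type libraries, each worth about 7 to 12 fragments. Exons of 2 genes on the other strand, POLR2B and IGFBP7-AS1, overlap those of IGFBP7, and no source states whether strand was used to count, so their reads cannot be told apart. The antisense transcript IGFBP7-AS1 read 3.63 ± 0.158 FPKM in Panc1 knockout and 0.511 ± 0.196 FPKM in Panc1 wild-type libraries (SD, n = 3 each) and had no reads in MiaPaCa2. POLR2B, a subunit of RNA polymerase II, read 18.9 ± 1.27 FPKM in Panc1 knockout and 24.2 ± 0.258 FPKM in Panc1 wild-type libraries, against the direction of IGFBP7.

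IGFBP2 binds both growth factors and, through an integrin-binding sequence, cell surfaces. It lies on the long arm of chromosome 2, 217497551 to 217529159, on the forward strand. The Panc1 knockout libraries held 46.1, 41.4 and 41.5 FPKM and the wild-type libraries 16.2, 14 and 17 FPKM (274% of the wild-type mean; log2 change 1.40, SE 0.10). In MiaPaCa2 the knockout libraries held 1.11, 0.6 and 0.67 FPKM and the wild-type libraries 1.71, 1.5 and 1.81 FPKM (47.4%; log2 change -0.59, SE 0.10). The groups did not overlap in either line, and the directions were opposite. The low MiaPaCa2 values rest on about 19 to 34 fragments in knockout and 46 to 57 in wild-type libraries, and with a pseudocount of 0.1 that change was -1.03. Chromosome 2 read lower in MiaPaCa2 knockout libraries, with a median of -0.17 relative to all genes over 787 others, and IGFBP2 stood at -0.60 on that scale.

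IGFBP4, which proteases such as PAPPA cleave to release its ligand, was by far the most abundant member in Panc1. It lies on chromosome 17, 38599702 to 38613977, on the forward strand. The Panc1 knockout libraries held 684, 697 and 726 FPKM and the wild-type libraries 643, 627 and 667 FPKM (log2 change 0.12, SE 0.07). These values did not overlap, but the difference was 0.26 after rescaling by the median ratio and -0.08 after quantile normalization, so its direction depends on the scaling. MiaPaCa2 had 124, 147 and 131 FPKM in knockout and 174, 146 and 146 FPKM in wild-type libraries (log2 change -0.21, SE 0.07). The MiaPaCa2 groups overlapped, and without wild-type replicate 1 the change was -0.13.

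The summed level of the 5 binding protein genes was mostly IGFBP4. It was 776 ± 20.2 FPKM in Panc1 knockout and 686 ± 22.4 FPKM in Panc1 wild-type libraries, and 214 ± 16.9 FPKM in MiaPaCa2 knockout and 242 ± 37.6 FPKM in MiaPaCa2 wild-type libraries (SD, n = 3 each). The Panc1 groups did not overlap (761 to 799 FPKM in knockout and 664 to 709 FPKM in wild-type libraries), while the MiaPaCa2 groups did. The make-up of the rest differed in Panc1. IGFBP2 held 5.55% of the sum in Panc1 knockout and 2.29% in wild-type libraries, and IGFBP7 held 3.54% in Panc1 knockout and 0.645% in wild-type libraries. IGFBP6 held 0.258% in Panc1 knockout and 1.4% in wild-type libraries, and IGFBP3 held 0.148% in Panc1 knockout and 1.6% in wild-type libraries. In MiaPaCa2, IGFBP4 made up 62.8% in knockout and 64.5% in wild-type libraries, and IGFBP6 nearly all of the remainder (36.7% in knockout and 34.6% in wild-type libraries).

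IGF1R, the main signalling receptor, lies on chromosome 15, 99191768 to 99507759, on the forward strand. The Panc1 knockout libraries held 19.5, 19.2 and 19.8 FPKM and the wild-type libraries 11, 10.6 and 10.5 FPKM. The groups did not overlap and the spread within each was small, so that the knockout mean was 182% of the wild-type mean (log2 change 0.81, SE 0.05). MiaPaCa2 had 5.22, 4.96 and 5.37 FPKM in knockout and 5.18, 4.77 and 4.77 FPKM in wild-type libraries, with overlap (log2 change 0.07, SE 0.05). The Panc1 change minus the MiaPaCa2 change was 0.74 (SE 0.07). The other 398 genes of chromosome 15 had medians of -0.04 in Panc1 and 0.07 in MiaPaCa2 relative to all genes.

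INSR, the insulin receptor, whose products can also pair with those of IGF1R in hybrid receptors, lies on chromosome 19, 7112266 to 7294425, on the reverse strand. It was low in Panc1, with 0.195, 0.189 and 0.2 FPKM in knockout and 0.129, 0.079 and 0.06 FPKM in wild-type libraries, or about 39 to 42 fragments in knockout and 12 to 27 in wild-type libraries. The knockout values were higher without overlap (log2 change 0.13, SE 0.055, and 0.65 with a pseudocount of 0.1). MiaPaCa2 had 3.44, 3.6 and 3.47 FPKM in knockout and 3.01, 3.45 and 3.11 FPKM in wild-type libraries, with overlap (log2 change 0.10, SE 0.055). The balance of the 2 receptor genes thus differed far more between the lines than between the genotypes. Whether it differed between the Panc1 genotypes is not resolved, since INSR in wild-type libraries rests on 12 to 27 fragments. The log2 ratio of IGF1R to INSR was 6.65 ± 0.0195 in Panc1 knockout and 6.98 ± 0.525 in Panc1 wild-type libraries, and 0.566 ± 0.0895 in MiaPaCa2 knockout and 0.622 ± 0.158 in MiaPaCa2 wild-type libraries (SD, n = 3 each).

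IGF2R lies on chromosome 6, 160390114 to 160534539, on the forward strand. The Panc1 knockout libraries held 42.8, 40.9 and 41.6 FPKM and the wild-type libraries 31.4, 33.1 and 31.9 FPKM (log2 change 0.37, SE 0.05). In MiaPaCa2 the knockout libraries held 27.7, 32.2 and 28.9 FPKM and the wild-type libraries 20.8, 19.6 and 19.1 FPKM (log2 change 0.55, SE 0.05). Every knockout value lay above every wild-type value in both lines. Chromosome 6 had a median of 0.10 in Panc1 and 0.02 in MiaPaCa2 relative to all genes, and IGF2R stood at 0.47 and 0.54 on that scale, above each of the 24 tested genes within 5 Mb in both lines (highest 0.38 and 0.39).

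IRS1 and IRS2 are the docking proteins that recruit PI3K to the activated receptors. IRS1 lies on the long arm of chromosome 2, 227596028 to 227664536, and IRS2 on chromosome 13, 110405042 to 110438930, both on the reverse strand. IRS2 read 2.27, 2.2 and 2.53 FPKM in Panc1 knockout and 1.21, 1.23 and 1.36 FPKM in Panc1 wild-type libraries (log2 change 0.55, SE 0.06). In MiaPaCa2 it read 2.82, 3.3 and 3.15 FPKM in knockout and 1.94, 2.04 and 1.79 FPKM in wild-type libraries (log2 change 0.48, SE 0.06). The knockout mean was 184% of the wild-type mean in Panc1 and 161% in MiaPaCa2, without overlap in either line. Another annotated transcript overlaps exons of IRS2 and was not analysed here, so shared reads cannot be told apart.

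IRS1 went the other way, by less. It read 8.79, 8.31 and 9.25 FPKM in Panc1 knockout and 9.51, 9.66 and 9.45 FPKM in Panc1 wild-type libraries (log2 change -0.11, SE 0.055). That difference was 0.02 after rescaling by the median ratio and 0.03 after quantile normalization, so in Panc1 its direction depends on the scaling. In MiaPaCa2 it read 13.1, 14.4 and 13.1 FPKM in knockout and 16.1, 17.6 and 16.2 FPKM in wild-type libraries, without overlap (log2 change -0.28, SE 0.055), beside the chromosome 2 median of -0.17 relative to all genes. The ratio within a library does not depend on scaling. The log2 ratio of IRS1 to IRS2 was 1.91 ± 0.0439 in Panc1 knockout and 2.91 ± 0.0965 in Panc1 wild-type libraries, and 2.13 ± 0.081 in MiaPaCa2 knockout and 3.12 ± 0.0635 in MiaPaCa2 wild-type libraries (SD, n = 3 each). The knockout minus wild-type differences of this ratio were -1 in Panc1 and -0.98 in MiaPaCa2, and the 3 values of each knockout group lay below the 3 of its wild-type group.

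**Figure D2:**
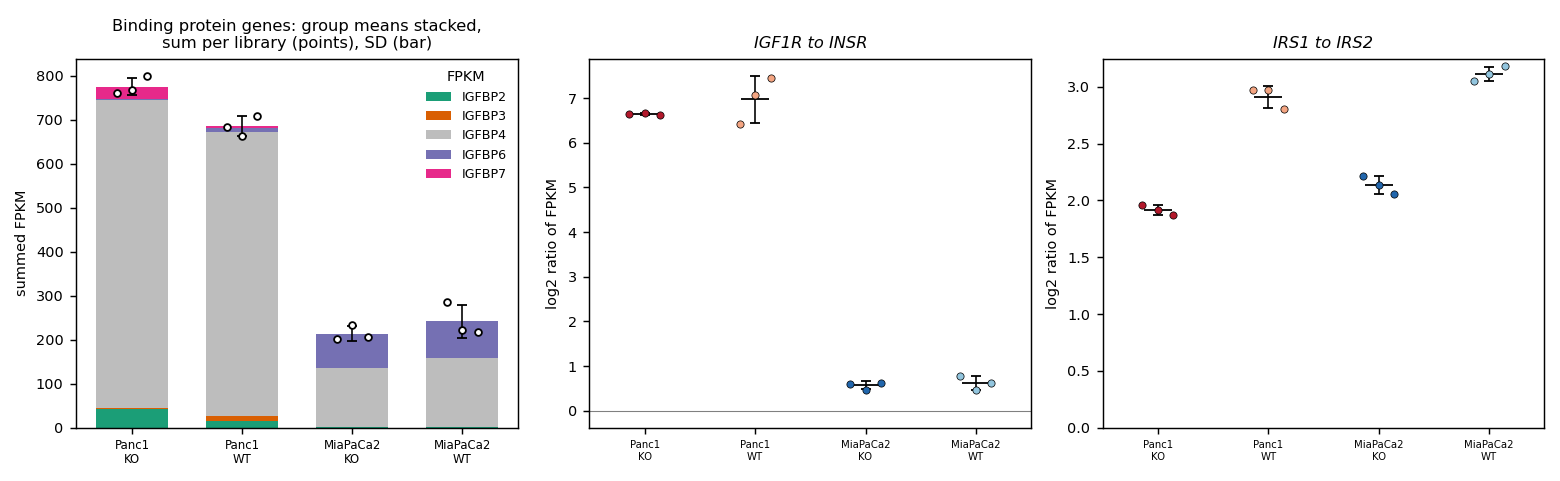
Left, mean FPKM of the 5 binding protein genes stacked by group, with the sum in each library (points) and its SD (bars); middle and right, log2 ratio of FPKM of IGF1R to INSR and of IRS1 to IRS2 per library (points), with mean and SD (bars). The IRS1 to IRS2 ratio averaged 1.91 in Panc1 knockout and 2.91 in Panc1 wild-type, and 2.13 in MiaPaCa2 knockout and 3.12 in MiaPaCa2 wild-type libraries.

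**Figure D3:**
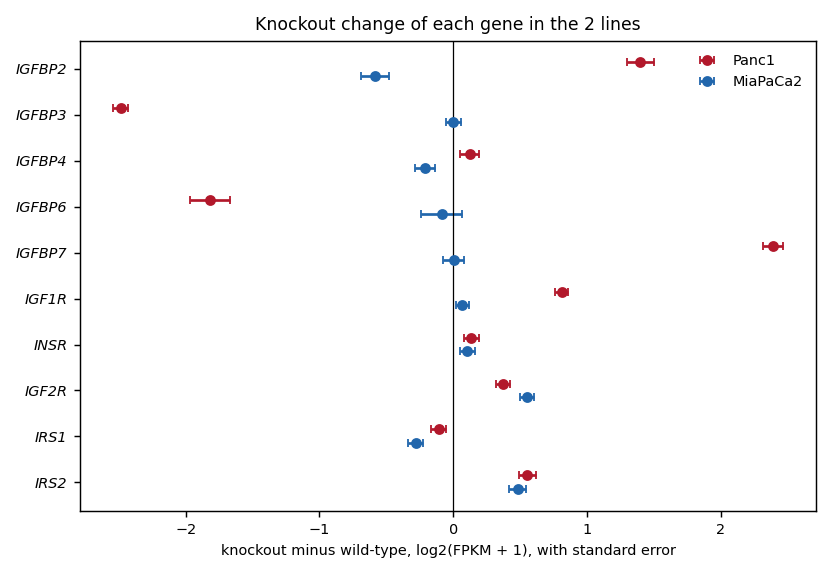
Knockout minus wild-type difference of log2(FPKM + 1) for each of the 10 genes in Panc1 (red) and MiaPaCa2 (blue), with the standard error of the fit (bars). IGFBP3 at -2.48 and IGFBP7 at 2.39 in Panc1 lie at the ends, while both stand at 0.00 in MiaPaCa2.

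The parental lines differed in all 10 genes, with no overlap between wild-type Panc1 and wild-type MiaPaCa2 libraries, beside 84.9% of all genes (42.8% higher in Panc1 and 42.1% lower). All 10 also passed the limma test, beside 82.7% of all genes (41.8% higher and 40.9% lower), from which nothing is read. Both comparisons of genotype share these wild-type libraries. IGFBP2, IGFBP3, IGFBP4, IGFBP7, IGF1R and IGF2R were higher in Panc1, and IGFBP6, INSR, IRS1 and IRS2 were higher in MiaPaCa2. On the log2(FPKM + 1) scale the Panc1 minus MiaPaCa2 differences were 2.64 for IGFBP2, 2.05 for IGFBP4, 2.04 for IGFBP7, 0.99 for IGF1R and 0.67 for IGF2R. No difference is given for IGFBP3, which averaged 11.0 FPKM in Panc1 and had no row in MiaPaCa2. The negative differences were -3.00 for IGFBP6, -1.94 for INSR, -0.74 for IRS1 and -0.37 for IRS2. In Panc1 wild-type libraries the order of mean FPKM was IGFBP4, IGF2R, IGFBP2, IGFBP3, IGF1R, IGFBP6, IRS1, IGFBP7, IRS2 and INSR, in which IGFBP3 and IGF1R (11.0 ± 0.515 and 10.7 ± 0.26 FPKM) and IGFBP6 and IRS1 (9.59 ± 1.46 and 9.54 ± 0.105 FPKM) do not differ beyond their spread. In MiaPaCa2 wild-type libraries it was IGFBP4, IGFBP6, IGF2R, IRS1, IGF1R, INSR, IRS2, IGFBP2, IGFBP7 and IGFBP3, in which IRS2 and IGFBP2 (1.92 ± 0.126 and 1.67 ± 0.157 FPKM) overlapped between libraries.

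IGFBP6, IGFBP2 and IGFBP7 had the widest range of group means on the log2(FPKM + 1) scale. The genes with the most similar profile over the 12 libraries, by the root mean square difference of log2(FPKM + 1) after removing each gene's mean, were CXCL1 (0.33), EMP1 (0.34) and EREG (0.34) for IGFBP6. CXCL1, a chemokine, averaged 0.737 FPKM in Panc1 knockout, 2.71 FPKM in Panc1 wild-type, 32.1 FPKM in MiaPaCa2 knockout and 33.2 FPKM in MiaPaCa2 wild-type libraries. For IGFBP2 they were MAP7 (0.25), THY1 (0.26) and IL32 (0.30), of which the surface protein gene THY1 averaged 16.5 FPKM in Panc1 knockout, 6.10 FPKM in Panc1 wild-type and at most 0.003 FPKM in MiaPaCa2 libraries. In MiaPaCa2, MAP7, THY1 and IL32 averaged at most 0.162 FPKM, and none was lower in knockout libraries, unlike IGFBP2. For IGFBP7 the most similar genes were MFGE8 (0.25), CNN1 (0.30) and SERINC2 (0.33), of which CNN1, the smooth muscle protein calponin, averaged 14.2 FPKM in Panc1 knockout and 1.99 FPKM in Panc1 wild-type libraries.

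Of 79 other genes of the pathway in 10 lists, 76 had a row and 65 were tested. In Panc1, 19 rose and 27 fell in knockout cells at the same threshold, together 70.8% of the 65, beside 63.5% of all genes. Their median log2 change was -0.08, beside -0.10 for all genes. The split depends on scaling, with 28 higher and 19 lower after rescaling by the median ratio, 24 and 22 after quantile normalization, and 16 and 31 after rescaling to the same sum. Over all genes it was 2910 higher and 5556 lower as deposited, and 4308 and 3909 after rescaling by the median ratio. In MiaPaCa2, 13 rose and 10 fell, which is 35.4% beside 34.1% of all genes, with a median of 0.03 beside 0.01. The difference between the lines passed for 42 of the 65 (64.6% beside 57.4%), 17 with the higher change in Panc1 and 25 with the lower.

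Among the ligands only IGF2 was tested, while IGF1 and INS had no row in these libraries. IGF2 read 30.6, 31.8 and 34.1 FPKM in Panc1 knockout and 10.9, 11.3 and 11.5 FPKM in Panc1 wild-type libraries, so it rose without overlap (log2 change 1.44, SE 0.10, limma adjusted p = 1.97e-07). In MiaPaCa2 it also rose, at 1.61, 0.96 and 1.77 FPKM in knockout and 0.523, 0.484 and 0.515 FPKM in wild-type libraries (log2 change 0.68, adjusted p = 0.000329). On this scale, which understates changes near 0, the rise read larger in Panc1 (difference 0.76, limma adjusted p = 0.000796). As a ratio of group means it was about the same in both lines. The means were 32.2 FPKM in Panc1 knockout, 11.2 FPKM in Panc1 wild-type, 1.45 FPKM in MiaPaCa2 knockout and 0.507 FPKM in MiaPaCa2 wild-type libraries. The read-through transcript INS-IGF2 covers the same exons and moved alike, at 28.3 ± 1.54 FPKM in Panc1 knockout and 9.86 ± 0.268 FPKM in Panc1 wild-type libraries (SD, n = 3 each), so the level of IGF2 itself is uncertain.

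Of the 4 other binding protein genes listed, 2 were tested, and both changed in Panc1 and were near 0 in MiaPaCa2. IGFBP1, a small binding protein regulated by insulin and stress, fell to 0.463, 0.434 and 0.492 FPKM in Panc1 knockout, against 5.37, 5.39 and 5.39 FPKM in Panc1 wild-type libraries (log2 change -2.13, SE 0.05, limma adjusted p = 1.56e-11). IGFBPL1, a related secreted protein, rose to 9.7, 9.03 and 9.46 FPKM in Panc1 knockout, against 1.65, 1.25 and 1.35 FPKM in Panc1 wild-type libraries (log2 change 2.11, SE 0.06, adjusted p = 1.3e-10). Both groups were clear of each other for each gene. Neither passed in MiaPaCa2, where neither gene exceeded 0.058 FPKM, and the difference between the lines passed for both (limma adjusted p = 9.18e-10 and 5.82e-09). IGFBP1 could hardly fall from such a level, so its difference of -2.09 only repeats the Panc1 change. IGFBP1 lies next to IGFBP3 on chromosome 7. IGFBP5 and the acid-labile subunit gene IGFALS stayed below the level tested, with means of at most 0.0883 FPKM in every group.

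**Figure D4:**
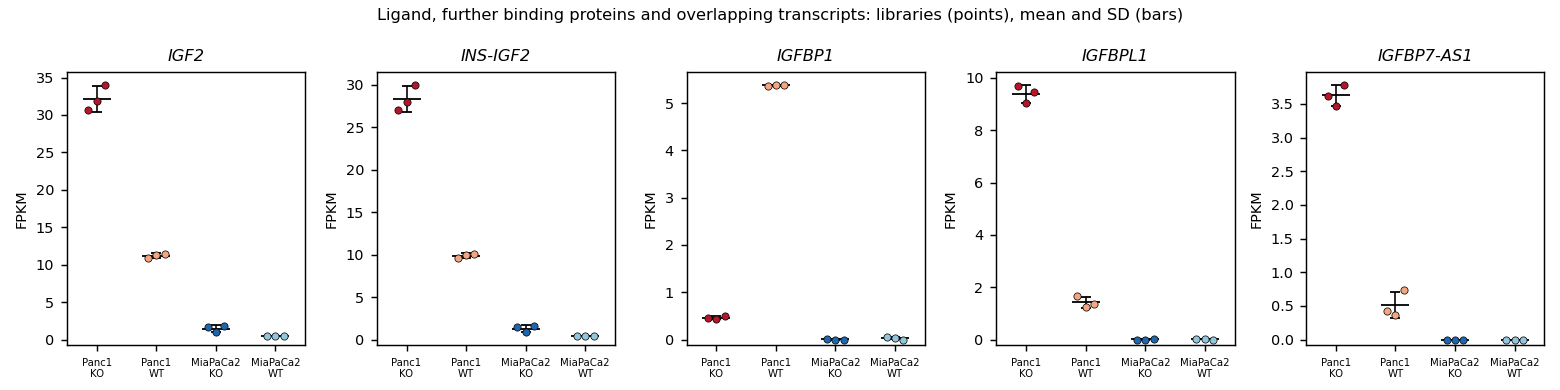
FPKM of IGF2, the overlapping read-through INS-IGF2, IGFBP1, IGFBPL1 and the antisense transcript IGFBP7-AS1 in each library (points), with mean and SD of 3 libraries (bars). IGF2 lay between 30.6 and 34.1 FPKM in Panc1 knockout and between 10.9 and 11.5 FPKM in Panc1 wild-type libraries, and IGFBP1 went the other way.

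Of the 8 tested proteases of binding proteins and ligands and their inhibitors, 1 rose and 5 fell in Panc1 knockout cells. Among all genes tested, 21.8% rose and 41.6% fell in Panc1, and 17.8% rose and 16.3% fell in MiaPaCa2. These shares stand beside the counts of this list and of each list below, and the Panc1 split depends on scaling. HTRA1, a secreted serine protease that cleaves binding proteins, fell to 1.04 ± 0.101 FPKM in knockout, against 3.83 ± 0.333 FPKM in wild-type cells (SD, n = 3 each; log2 change -1.24, limma adjusted p = 9.2e-09). IDE, the insulin-degrading enzyme, fell (log2 change -0.68), and so did the sheddase gene ADAM10 (log2 change -0.58). In MiaPaCa2 IDE fell (log2 change -0.30, adjusted p = 0.00207) and PAPPA, the protease that cleaves IGFBP4, rose by 0.21 near the threshold (adjusted p = 0.0491), with overlapping groups. STC2, an inhibitor of PAPPA, separated the wild-type lines, with 40.1 ± 0.514 FPKM in Panc1 and 0.046 ± 0.072 FPKM in MiaPaCa2, and FURIN, which processes the receptor precursors, was higher in Panc1 by 1.49.

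Receptor-proximal adaptors and inhibitors moved in both directions. Of 5 adaptors tested in Panc1, 1 rose and 3 fell, and in MiaPaCa2 2 fell. SHC1, which links the receptors to RAS, rose in Panc1 (235 ± 3 FPKM in knockout and 169 ± 3.42 FPKM in wild-type libraries, log2 change 0.47, limma adjusted p = 6.73e-06). In MiaPaCa2 it fell (114 ± 9.66 FPKM in knockout and 133 ± 3.66 FPKM in wild-type libraries, log2 change -0.23, adjusted p = 0.0047), a call lost after quantile normalization (adjusted p = 0.0558). The RAS exchange factor gene SOS1 fell in both lines (log2 change -0.38 in Panc1 and -0.26 in MiaPaCa2), and SH2B1, an adaptor of these receptors, fell in Panc1 (-0.24). Of 11 negative regulators, 4 rose and 4 fell in Panc1, and 4 rose and 2 fell in MiaPaCa2. GRB10, an adaptor that dampens IGF1R and INSR, fell to 28.9 ± 0.413 FPKM in Panc1 knockout, against 71.8 ± 1.05 FPKM in wild-type libraries (log2 change -1.28, adjusted p = 3.09e-08), and rose to 12.6 ± 1.84 FPKM in MiaPaCa2 knockout, against 8.7 ± 0.269 FPKM in wild-type libraries (log2 change 0.47, adjusted p = 0.000412). GRB10 is a chromosome 7 gene, and that chromosome had a median of -0.23 in Panc1 and 0.02 in MiaPaCa2 relative to all genes. TRIB3, a stress-induced pseudokinase reported to bind AKT, rose in both lines (log2 change 1.83 in Panc1 and 0.84 in MiaPaCa2). SOCS1, a feedback inhibitor induced by cytokines, fell in both (-0.72 in Panc1 and -0.45 in MiaPaCa2). SOCS2 separated the wild-type lines, higher in Panc1 by 2.64.

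The PI3K-AKT list held 14 tested genes, of which 5 rose and 6 fell in Panc1 and 2 rose and 2 fell in MiaPaCa2. PIK3R1, a regulatory subunit of PI3K, fell to 1.36 ± 0.0633 FPKM in Panc1 knockout, against 3.32 ± 0.106 FPKM in Panc1 wild-type cells (log2 change -0.87, limma adjusted p = 6.96e-08). The regulatory subunit genes PIK3R2 and PIK3R3 read higher than PIK3R1 in both lines, at 15.2 and 9.39 FPKM in Panc1 wild-type cells. In Panc1, PIK3R2 rose (log2 change 0.32) and PIK3R3 fell (-0.43). The AKT phosphatase gene PHLPP1 rose by 0.85. AKT1 rose by 0.27 in Panc1, where PHLPP2 fell (log2 change -0.44). In MiaPaCa2 AKT1 fell (81.3 ± 2.54 FPKM in knockout and 105 ± 1.3 FPKM in wild-type cells, log2 change -0.36, adjusted p = 1.84e-05), and the phosphatase genes INPP4B and PHLPP2 rose by 0.35 and 0.23. AKT2 was the gene of this list that separated the wild-type lines most, with 523 ± 16.2 FPKM in Panc1 and 29.5 ± 0.915 FPKM in MiaPaCa2, and its knockout changes did not pass (0.07 in Panc1, SE 0.05, and -0.01 in MiaPaCa2, SE 0.05).

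Further downstream, of 11 mTOR genes 3 rose and 4 fell in Panc1, and 2 rose and 1 fell in MiaPaCa2. EIF4EBP1, the translation repressor that mTOR inactivates, rose to 71.6 ± 3.61 FPKM in Panc1 knockout, against 33.6 ± 1.83 FPKM in wild-type libraries (log2 change 1.07, limma adjusted p = 1.57e-08). RHEB, the GTPase that activates mTOR and a chromosome 7 gene, fell (log2 change -0.54), as did RICTOR, a subunit of the second mTOR complex (-0.50). In MiaPaCa2 TSC1 rose by 0.27, TSC2 rose by 0.14 and MTOR fell (-0.17). TSC2 was near the threshold (adjusted p = 0.0442) and lost its call when several single libraries were left out, MiaPaCa2 wild-type replicate 3 among them (0.10, adjusted p = 0.187). Of 4 genes in the FOXO, GSK3 and BAD list, FOXO3 rose in Panc1 by 0.45 and in MiaPaCa2 by 0.23. GSK3A and GSK3B, kinases that AKT inhibits, fell in Panc1 (-0.21 and -0.22), calls lost after rescaling by the median ratio (adjusted p = 0.279 and 0.235).

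Of the 3 genes for proteins that bind IGF2 mRNA, IGF2BP2 rose in Panc1 (60.6 ± 4.38 FPKM in knockout and 34.5 ± 1.27 FPKM in wild-type libraries, log2 change 0.79, limma adjusted p = 3.28e-07). It fell in MiaPaCa2 (69.5 ± 4.84 FPKM in knockout and 79.6 ± 2.47 FPKM in wild-type libraries, log2 change -0.19, adjusted p = 0.0253), a call lost without MiaPaCa2 wild-type replicate 2 or 3, without knockout replicate 1 or 3 and after quantile normalization (adjusted p = 0.0518 to 0.175). IGF2BP3, a chromosome 7 gene, fell in both lines (-0.33 in Panc1 and -0.50 in MiaPaCa2). In Panc1 chromosome 7 had a median of -0.23 relative to all genes, whose own median was -0.10. The Panc1 fall of IGF2BP3 was thus about that of its chromosome. IGF2BP1 read 8.3 ± 0.268 FPKM in Panc1 wild-type libraries and at most 0.01 FPKM in any MiaPaCa2 library. Of 6 genes of mannose 6-phosphate sorting, which IGF2R serves, M6PR, the other mannose 6-phosphate receptor, rose by 0.12 in Panc1 (adjusted p = 0.0468) and by 0.20 in MiaPaCa2. The Panc1 call of M6PR was lost under many alternatives, such as rescaling to the same sum (0.05, adjusted p = 0.378). The sorting adaptor genes GGA2 in MiaPaCa2 (0.20) and GGA3 in Panc1 (-0.16) also passed, GGA3 no longer without Panc1 wild-type replicate 2 or 3, without knockout replicate 2 or 3 or after rescaling by the median ratio or quantile normalization (adjusted p = 0.061 to 0.691).

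Between the wild-type lines 53 of the 65 pathway genes passed, 30 higher and 23 lower in Panc1 (81.5% beside 82.7% of all genes). Besides STC2, FURIN, SOCS2, AKT2 and IGF2BP1, the Panc1 minus MiaPaCa2 differences were 3.02 for IGF2, 2.63 for IGFBP1, 1.26 for IGFBPL1, 2.91 for GRB10, 1.77 for PIK3R1, 1.53 for MLST8, 1.13 for FOXO3, 0.39 for GNPTAB and 0.34 for SHC1. They were -2.40 for EIF4EBP1, -1.50 for IGF2BP3, -1.11 for M6PR, -0.95 for GSK3B and -0.57 for SH2B2. IGF2, IGFBP1 and IGFBPL1 were thus higher in Panc1.

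**Figure D5:**
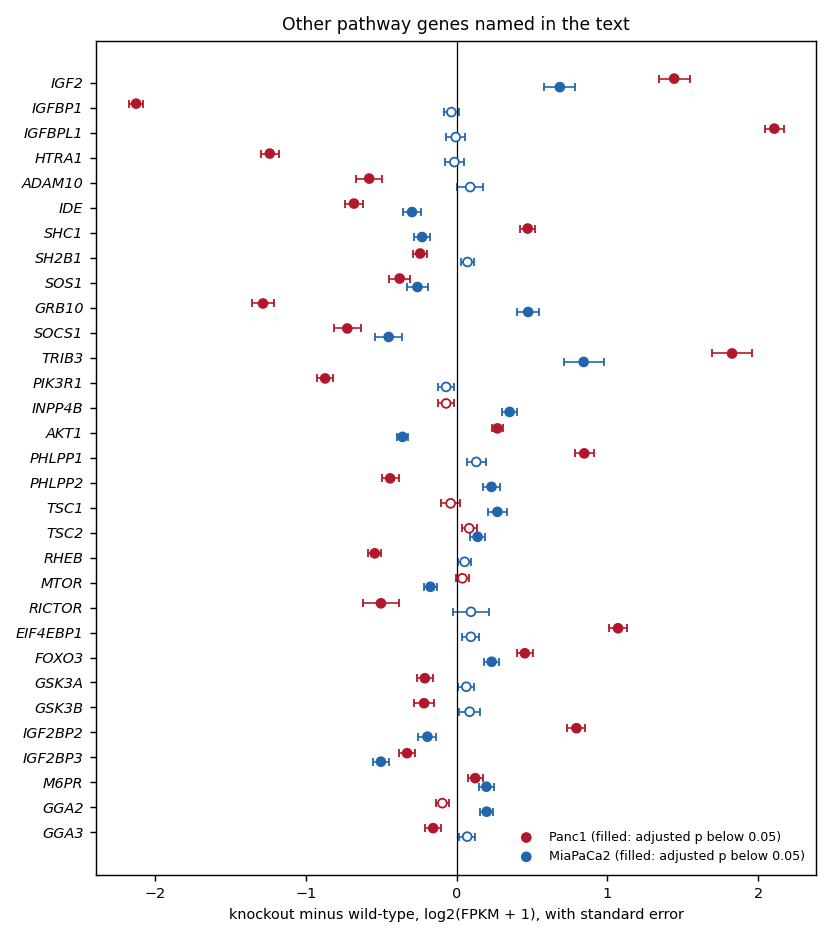
Knockout minus wild-type difference of log2(FPKM + 1) with its standard error for the other pathway genes named by rule for the knockout comparisons, in Panc1 (red) and MiaPaCa2 (blue). Filled points passed a limma adjusted p below 0.05. IGFBP1 at -2.13 and IGFBPL1 at 2.11 in Panc1 mark the ends, and IGF2, TRIB3 and FOXO3 rose in both lines.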

How the data were processed

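RNA-seq of 12 libraries of human cell lines was used, 3 each of ASAP2 knockout and wild-type Panc1 and MiaPaCa2 cells, grouped by their titles. RNA was isolated with ISOGEN II and sequenced on a BGISEQ-500, per the labels' protocols. The authors deposited 1 FPKM value per gene symbol and library. According to the design text of the series, trimmed and filtered reads were aligned to hg19 by TopHat2 2.0.14, and STAR 2.5.2a gave FPKM. The sources used here do not say whether strand was used in counting. A symbol missing from a library was taken as 0. No count test was run. Depth was estimated from ratios between libraries of values of 0.03 to 0.3 FPKM, which pile up where both hold the same number of fragments, and from 57 genes with 1 annotated transcript whose values were whole multiples of their lowest within 0.1 (median 22000000 fragments, quartiles 21700000 and 22700000). Fragments behind a member are approximate, from its canonical transcript length.

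Values of log2(FPKM + 1) from all 12 libraries entered a single model with a mean for each group (limma 3.58.1, R 4.3.3, 8 residual degrees of freedom, trended prior). Tests were two-sided, and p-values were adjusted by Benjamini-Hochberg over the 13340 genes that averaged 1 FPKM or more in either line. The procedure was tested on simulated data. The members and lists were chosen with earlier results of these data known, and so were the alternatives. Pathway genes are named by a rule: in each list up to 3 called genes per knockout comparison, and up to 2 between the wild-type lines, with the largest change, no overlap and at least 1 FPKM in the higher group, besides the ligands. A gene that the rule gives is not reported here, though the counts include it. PAPPA, IGFBP5, IGFALS, PIK3R2, PIK3R3 and the overlapping transcripts lie outside it and were named after their values were seen, as were the marker genes singled out. Gene positions came from GENCODE 44 lifted to GRCh37 (hg19), promoter windows from RefSeq (GRCh38.p14), matched by symbol.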

Additional observations from a re-analysis of the deposited data

Results flagged for a closer look

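Several genes differed between the lines in the direction of their knockout change. IGFBP2 was higher in all 3 Panc1 knockout libraries and lower in all 3 MiaPaCa2 knockout libraries than in the wild-type libraries of the same line, with changes that differ by 1.99 on the log2 scale; no test of this difference is reported, because the gene was selected on these values. Of the pathway genes named, 5 were called in both lines in opposite directions and had a tested difference. How many of all genes do so was not counted, so nothing about the pathway is read from this number. Of all genes, 63.5% were called in Panc1, 34.1% in MiaPaCa2 and 57.4% for the difference. The MiaPaCa2 calls of IGF2BP2 and SHC1 were lost after quantile normalization (limma adjusted p = 0.175 and 0.0558), and that of IGF2BP2 also when several single libraries were left out. The Panc1 change minus the MiaPaCa2 change was -1.76 for GRB10 (adjusted p = 9.66e-08), 0.99 for IGF2BP2 (adjusted p = 1.88e-06), 0.70 for SHC1 (adjusted p = 8.27e-06), -0.67 for PHLPP2 (adjusted p = 2.28e-05) and 0.63 for AKT1 (adjusted p = 1.26e-06), all with limma. GRB10 is a chromosome 7 gene, and that chromosome read lower in Panc1 knockout libraries.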

How the results depend on the processing

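Directions were followed for the members, and for pathway genes in the comparisons for which the rule named them. Among these, no direction called in the fit turned round under another pseudocount, filter, scaling or weighting. Nor did any without the trend, with each line alone, with the replicate block or with a library left out. Other calls were not followed, among them PAPPA in MiaPaCa2, AKT1, PHLPP2, PIK3R2 and PIK3R3 in Panc1 and the differences between the lines of pathway genes. After rescaling by the median ratio the pathway genes with a lower change in Panc1 than in MiaPaCa2 numbered 15 in place of 25, and the summed binding proteins in Panc1 differed by 0.32 in place of 0.18 (log2). Deviations of same-numbered replicates correlated at r = 0.026 to 0.096 in Panc1 and -0.176 to -0.002 in MiaPaCa2. Those of other numbers ran from -0.109 to 0.065 in Panc1 and from -0.201 to 0.269 in MiaPaCa2. With 3 libraries per group, these values cannot decide whether the numbers pair the libraries. With the replicate block, pathway calls were 18 higher and 25 lower in Panc1 and 11 and 8 in MiaPaCa2; the block also ended the calls of GGA3 and M6PR in Panc1 and of TSC2 in MiaPaCa2 (adjusted p = 0.0683, 0.0644 and 0.0784). With single libraries left out, Panc1 calls ran from 16 to 19 higher and 23 to 29 lower, MiaPaCa2 calls from 11 to 13 and 7 to 13. Without MiaPaCa2 wild-type replicate 1 the MiaPaCa2 difference of the summed binding proteins was -0.05 in place of -0.17. The Panc1 difference of the IGF1R to INSR ratio was -0.33 and ran from -0.61 without wild-type replicate 1 to -0.09 without replicate 3, with 12 to 27 INSR fragments in each wild-type library. In MiaPaCa2 that difference was -0.06 and became 0.03 without wild-type replicate 1. Fits of each line alone give no value for the comparisons between lines. The cause of the other shifts was not tested. Values below about 1 FPKM are limited by depth and by the pseudocount.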
